A study of Homo sapiens with 9 samples.

Results

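The genes described here encode the chaperones of the cytosol and their mitochondrial relatives: the heat shock factors HSF1 and HSF2, the heat shock proteins of the Hsp70, Hsp110, Hsp90 and small classes, their co-chaperones, and the 8 subunits of the chaperonin TRiC. They were taken by symbol from a list of 39 gene names. The names matched 40 of the 58735 rows of the expression table, because 2 Ensembl genes carry the name HSPA14. All 40 rows passed the filter on low values, a mean of at least 0.1 FPKM (a level corrected for the length of the gene and the depth of the library) over the libraries.

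The libraries were poly(A) RNA-seq of HCT116, an established human colorectal carcinoma line. The study asked how the deubiquitinase A20, encoded by TNFAIP3, alters expression in these tumour cells. It held 3 groups of 3 libraries, with the genotypes A20-WT, A20-KO and A20-OE. The study's methods describe the last group as a rescue of the knockout, that is, knockout cells in which A20 was restored. A lentiviral CRISPR vector with a guide RNA against A20 and a CMV-driven A20 vector are described there, while whether a group was 1 clone or a pool is not given in the sources used here. Nothing says that the 3 libraries of a group came from separate cultures, so every p-value measures the spread between these libraries, which may be technical.

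TNFAIP3 was at 0.802 ± 0.067 FPKM (mean ± SD, n = 3) in WT, 1.71 ± 0.59 in the libraries labelled A20-KO and 60.6 ± 5.25 in those labelled A20-OE. The transcript was thus not lower in the KO-labelled libraries (log2 fold change 0.95, limma adjusted p = 0.0182), and the groups are named by their labels throughout. These RNA values do not measure the A20 protein and so do not test the knockout. The study shows the A20 level of its knockout and rescue cells in a figure. Between 23406222 and 24963691 reads per library were recovered from the FPKM values. Of 9 epithelial markers, EPCAM (96.0 to 140 FPKM), CDH1, KRT8, KRT18, KRT19 and CDX2 were present, and VIL1 and CDX1 were at or near 0. KRT20 had a mean of 0.782 FPKM in WT, 3.93 in the KO-labelled and 3.62 in the OE-labelled libraries. The summed level of the 9 was 1093 to 1472 FPKM in WT, 1701 to 2245 in the KO-labelled and 1690 to 2235 in the OE-labelled libraries. KRT19 was at means of 434, 878 and 903 FPKM in these groups. All 3 leukocyte and both endothelial markers stayed under 1 FPKM. Of 3 fibroblast markers COL1A2 and PDGFRB also did, whereas COL1A1 put the summed level of the list at 4.60 to 5.84 FPKM in WT, 12.5 to 15.0 in the KO-labelled and 11.03 to 12.3 in the OE-labelled libraries. Base composition differed between libraries by Spearman's rho across genes between GC content and the library's deviation from the mean of all libraries. It was -0.61, -0.17 and 0.15 in WT, 0.42, 0.19 and 0.53 in the KO-labelled and 0.02, -0.13 and 0.10 in the OE-labelled libraries. WT replicate 1 had the lowest rho, and every KO-labelled library lay above every WT and OE-labelled library. The share of reads on mitochondrially encoded genes was 8.79%, 10.39% and 12.7% in the 3 groups in that order. The part of the marker, base composition and mitochondrial differences in the results below was not tested beyond the values given.

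Chaperones bind unfolded proteins and help them to fold, refold or be degraded. Hsp70 proteins bind and release short hydrophobic stretches in a cycle driven by ATP, in which J proteins deliver the substrate and speed up hydrolysis, and Hsp110, BAG and related proteins exchange the nucleotide. Hsp90 acts later, on clients such as kinases and steroid receptors, with its own co-chaperones, while TRiC encloses actin, tubulin and other proteins in a chamber. Under heat or other proteotoxic stress the factor HSF1 forms trimers, binds inverted repeats of the bases GAA, the heat shock elements, and raises transcription of many of these genes. Tumour cells commonly keep chaperone expression high.

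Mean FPKM stepped down from WT over A20-KO to A20-OE in 30 of the 40 rows. How many of all genes did so was not counted. In A20-KO against WT, 20 of the 40 rows fell and 1, HSPB8, rose at adjusted p under 0.05 (limma on log2(FPKM + 0.1), Benjamini-Hochberg over the 21636 genes tested). Of all genes tested, 11% fell and 11.3% rose in this comparison. The median log2 fold change was -0.37 over the 40 rows and -0.01 over all genes tested. One row, HSPA14, also passed a change of 2-fold, which 6.99% of all genes did.

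In A20-OE against A20-KO, 11 of the 40 rows fell, against 4.54% of all genes, and 5 of them fell past 2-fold, against 2.39% of all genes in either direction. No row rose by limma, while 4.43% of all genes rose, a share at which few of 40 rows would be expected to rise. The count of higher rows was also 0 at an unadjusted p under 0.05 and by limma-voom on the recovered reads. The shares of all genes for these 2 settings are not given here. The median was -0.27 over the rows and 0.01 over all genes. Leaving out 1 library gave between 6 and 14 falling rows, with 7 without KO replicate 1, KO replicate 3, OE replicate 2 or OE replicate 3, 8 without WT replicate 2 or KO replicate 2, 6 without OE replicate 1 and 14 without WT replicate 1. Over the same omissions the count for A20-KO against WT ran from 14 to 20.

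In A20-OE against WT, 29 rows fell and HSPB8 rose, where 15.4% of all genes fell and 15.7% rose. Past 2-fold were 8 rows, all lower, against 11.9% of all genes in either direction. The 3 comparisons share libraries and are not independent of each other. In 16 of the 30 rows whose means stepped down, every WT library lay above every KO-labelled library and every KO-labelled above every OE-labelled library. The share of all genes with such a separation was not counted, so these rows cannot be set against it. Together the 40 rows took 2.46% ± 0.15 of the reads on nuclear genes in WT, 1.83% ± 0.02 in the KO-labelled and 1.38% ± 0.05 in the OE-labelled libraries (mean ± SD, n = 3). In bulk RNA, fewer cells of a kind and less RNA per cell cannot be told apart.

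**Figure D1:**
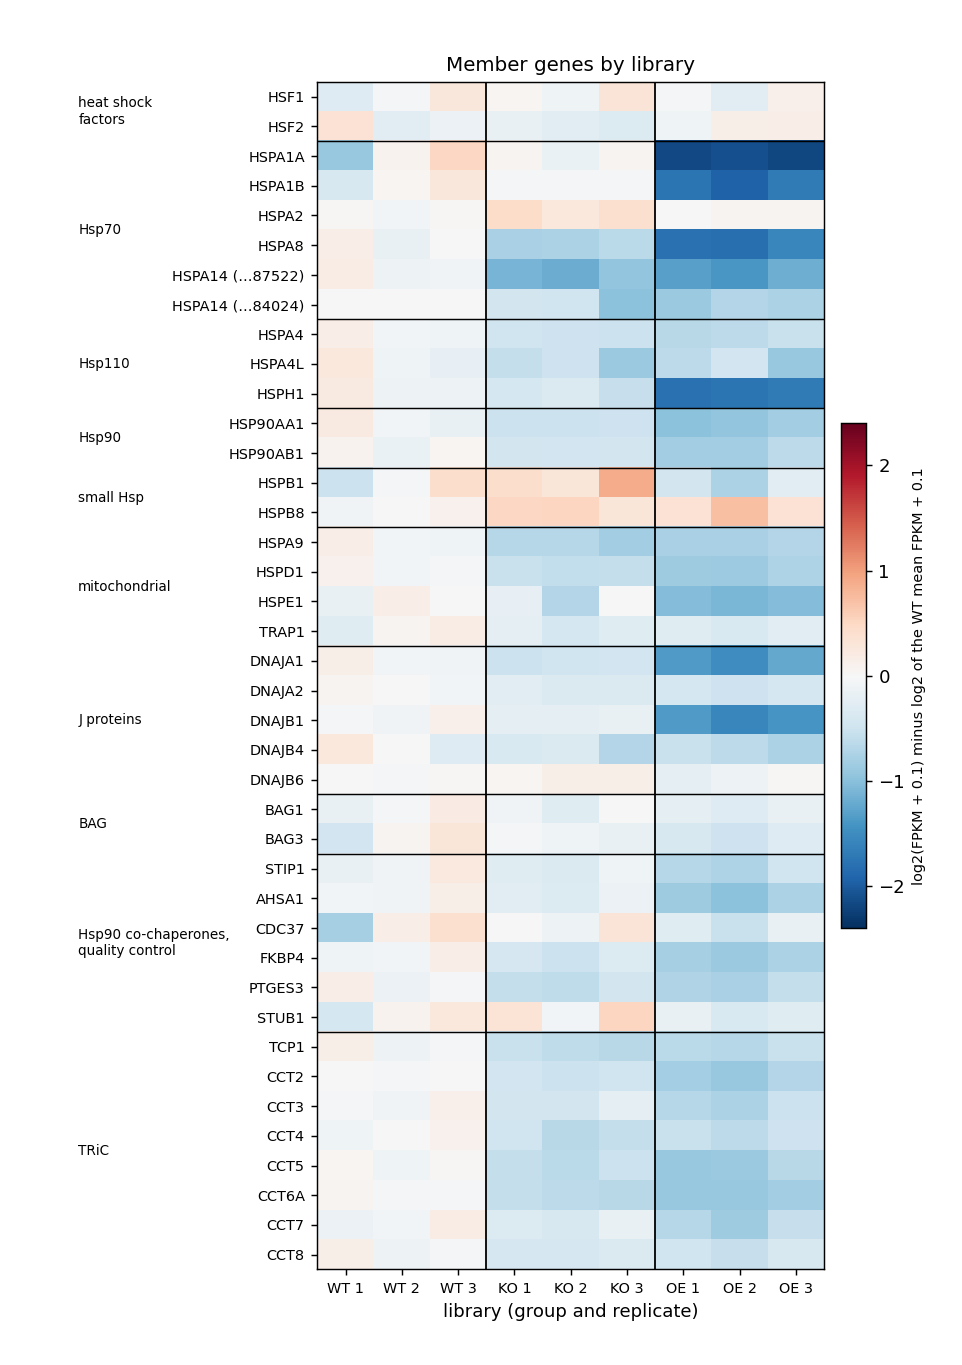
Each of the 40 chaperone rows (vertical axis, grouped by role) in each of the 9 libraries (horizontal axis), coloured by log2(FPKM + 0.1) minus the log2 of the WT mean FPKM + 0.1. HSPA1A, HSPA1B, HSPA8, HSPH1, DNAJA1 and DNAJB1 are darkest in the 3 OE-labelled libraries, the TRiC rows are pale blue in all 6 libraries that are not WT, and WT replicate 1 is low for HSPA1A and CDC37.

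Promoter sequence is shown for members whose windows hold heat shock elements, since these elements are what the heat shock genes are known to share. RefSeq (GRCh38.p14) windows from 250 bases before to 50 bases after a start were at hand for 34 of the 39 names, all except HSF1, HSPA14, FKBP4, STUB1 and CCT6A. Both strands were searched for 2 abutting units, GAANNTTC or TTCNNGAA, each of which is its own reverse complement, and for 3 abutting units, in which a further GAA or TTC follows after NN. At least 2 units were found in 18 of the 34 genes (52.9%) and in 16.2% of 27305 genes in all. The longer form was found in 6 of the 34 (17.6%), HSPA8, HSP90AA1, HSP90AB1, HSPD1, DNAJA1 and DNAJB6, and in 0.608% of all genes. A match of letters is not a binding site, and binding was not measured.

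Below, the constitutive HSPA8 is set beside the heat-inducible copies HSPA1A and HSPA1B, the Hsp90 gene HSP90AA1, the mitochondrial HSPD1 and 3 J protein genes. Each line is the gene's own strand 5′ to 3′, 30 bases long, with the matched units in capitals. The HSPA8 stretches are at chr11:123062345-123062374 and chr11:123062170-123062199 on the minus strand, bases -238 to -209 and -63 to -34 from the start, and the next 2 are at chr6:31815426-31815455 and chr6:31827622-31827651 on the plus strand. The others are at chr14:102087104-102087133 and chr2:197500061-197500090 (both minus), chr9:33025268-33025297 (plus, over the start), chr19:14518456-14518485 and chr19:14518426-14518455 (minus) and chr7:157336865-157336894 (plus). For genes with more than 1 window, only 1 window with matches is shown. The HSPD1 stretch lies before the start at 197499840 and after the other start, at 197500274, whose window holds no match.
HSPA8, distal: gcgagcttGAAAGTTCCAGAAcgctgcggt
HSPA8, proximal: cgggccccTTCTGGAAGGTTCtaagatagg
HSPA1A: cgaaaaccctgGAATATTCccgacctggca
HSPA1B: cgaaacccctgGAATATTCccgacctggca
HSP90AA1: cTTCCGGAAGGTTCgggaggcTTCTGGAAa
HSPD1: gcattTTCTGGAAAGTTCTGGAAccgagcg
DNAJA1: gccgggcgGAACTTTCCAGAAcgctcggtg
DNAJB1, distal: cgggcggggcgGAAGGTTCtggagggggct
DNAJB1, proximal: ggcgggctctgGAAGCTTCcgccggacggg
DNAJB6: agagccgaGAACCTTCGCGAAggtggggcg

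Genes that fell were found with and without these letters. A missing match means only that no exact abutting units lay inside the windows searched. For HSPE1, the HSPD1 stretch printed above lies before its start (chr2:197500379) but outside its window. Of the 6 genes with the 3-unit form, 2 fell in A20-OE against A20-KO (HSPA8 and DNAJA1), with a median log2 fold change of -0.37 over the 6, and 4.54% of all genes fell. Of the 12 rows with 2 units alone, 5 fell, with a median of -0.25, and of the 16 rows with a window and no match 3 fell (HSPH1, HSPE1 and AHSA1), with a median of -0.26. DNAJB6 holds the 3-unit form and passed no test in any of the 3 comparisons.

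HSF1 and HSF2 did not pass the test in any comparison. HSF1, the master regulator of the response, was at 27.0, 33.0 and 40.7 FPKM in WT, 34.7, 31.2 and 41.6 in the KO-labelled and 33.0, 28.3 and 36.5 in the OE-labelled libraries. The 3 groups overlapped fully. Its log2 fold change was 0.10 ± 0.17 (SE) in A20-KO against WT (adjusted p = 0.711, limma) and -0.14 ± 0.17 in A20-OE against A20-KO (adjusted p = 0.666). With a correction for GC content, of which HSF1 has 64.7%, A20-KO against WT became -0.30 with adjusted p = 0.0229. HSF2, a factor of development and stress that pairs with HSF1, had means of 11.9, 9.89 and 12.5 FPKM in WT, A20-KO and A20-OE, with adjusted p of at least 0.232. HSF4, another heat shock factor, falls outside the rule for named genes and was named after its values were seen. It rose from 3.31 FPKM in WT to 6.19 in A20-KO (log2 fold change 0.89, adjusted p = 0.00605, limma) and was at 5.99 FPKM in A20-OE (log2 fold change 0.85 against WT, adjusted p = 0.00471).

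The Hsp70 class held the largest differences. HSPA1A (chr6:31815464-31817946, plus strand, in the table's GRCh38 coordinates) and HSPA1B (chr6:31827735-31830255, plus) are neighbouring genes that encode nearly the same protein, the inducible Hsp70. HSPA1B was at 38.5, 51.9 and 60.8 FPKM in WT, 49.1, 49.6 and 49.7 in the KO-labelled and 15.0, 13.0 and 15.4 in the OE-labelled libraries. All 3 OE-labelled libraries lay below the other 6, and the KO-labelled libraries fell within the range of WT. The log2 fold change was -1.77 ± 0.15 in A20-OE against A20-KO (adjusted p = 7.19e-04, limma), leaving 29.2% of the KO-labelled mean, and 0.00 ± 0.15 in A20-KO against WT. HSPA1A was read at a lower level, 1.96, 3.997 and 5.35 FPKM in WT, 3.93, 3.36 and 3.97 in the KO-labelled and 0.758, 0.795 and 0.754 in the OE-labelled libraries. It fell by 2.15 on the log2 scale in A20-OE against A20-KO (SE 0.30, adjusted p = 0.00519).

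Reads of the 2 copies can be assigned to the wrong one, so the copies were also added up. Their summed level was 54.2 ± 12.9 FPKM in WT, 53.2 ± 0.43 in the KO-labelled and 15.2 ± 1.24 in the OE-labelled libraries, and the summed row fell by 1.80 on the log2 scale in A20-OE against A20-KO (adjusted p = 8.07e-04, limma). WT replicate 1 gave the lowest WT value for either copy. HSPA1B shares 920 exonic bases (36.5%) on the same strand with AL671762.1, which was at 0 FPKM. What this overlap does to the level of HSPA1B was not tested.

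HSPA8 (chr11:123057489-123063230, minus strand), the constitutive Hsc70 that serves folding and clathrin uncoating, moved in both steps. It was at 523, 414 and 461 FPKM in WT, 273, 274 and 298 in the KO-labelled and 135, 133 and 157 in the OE-labelled libraries, with no overlap between groups. It fell by 0.72 ± 0.12 in A20-KO against WT (adjusted p = 0.00413) and by 0.99 ± 0.12 in A20-OE against A20-KO (adjusted p = 0.00357, limma), so that 30.5% of the WT mean was left in A20-OE. Both decreases held in every alternative fit, and the promoter holds 2 of the 3-unit elements printed above.

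The 2 rows named HSPA14, a ribosome-associated Hsp70, shared 460 exonic bases on the same strand, and reads cannot be told apart there. ENSG00000187522 was at 13.4, 10.8 and 11.1 FPKM in WT, 5.40, 5.11 and 6.07 in the KO-labelled and 4.68, 4.42 and 5.15 in the OE-labelled libraries. The WT libraries lay above all the others, and it fell by 1.07 ± 0.12 in A20-KO against WT (adjusted p = 5.79e-04) with -0.21 ± 0.12 between A20-OE and A20-KO (adjusted p = 0.304). Without WT replicate 1 or with the GC correction the first change no longer exceeded 2-fold. ENSG00000284024 fell by 0.63 in A20-KO against WT (adjusted p = 0.0157). HSPA2, a testis-enriched Hsp70, stayed between 1.03 and 1.49 FPKM with no call in any of the 3 comparisons. Its KO-labelled libraries lay above all WT and all OE-labelled libraries, with a log2 fold change of 0.36 against WT (adjusted p = 0.0822, limma). With the GC correction this change passed (adjusted p = 0.0136).

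**Figure D2:**
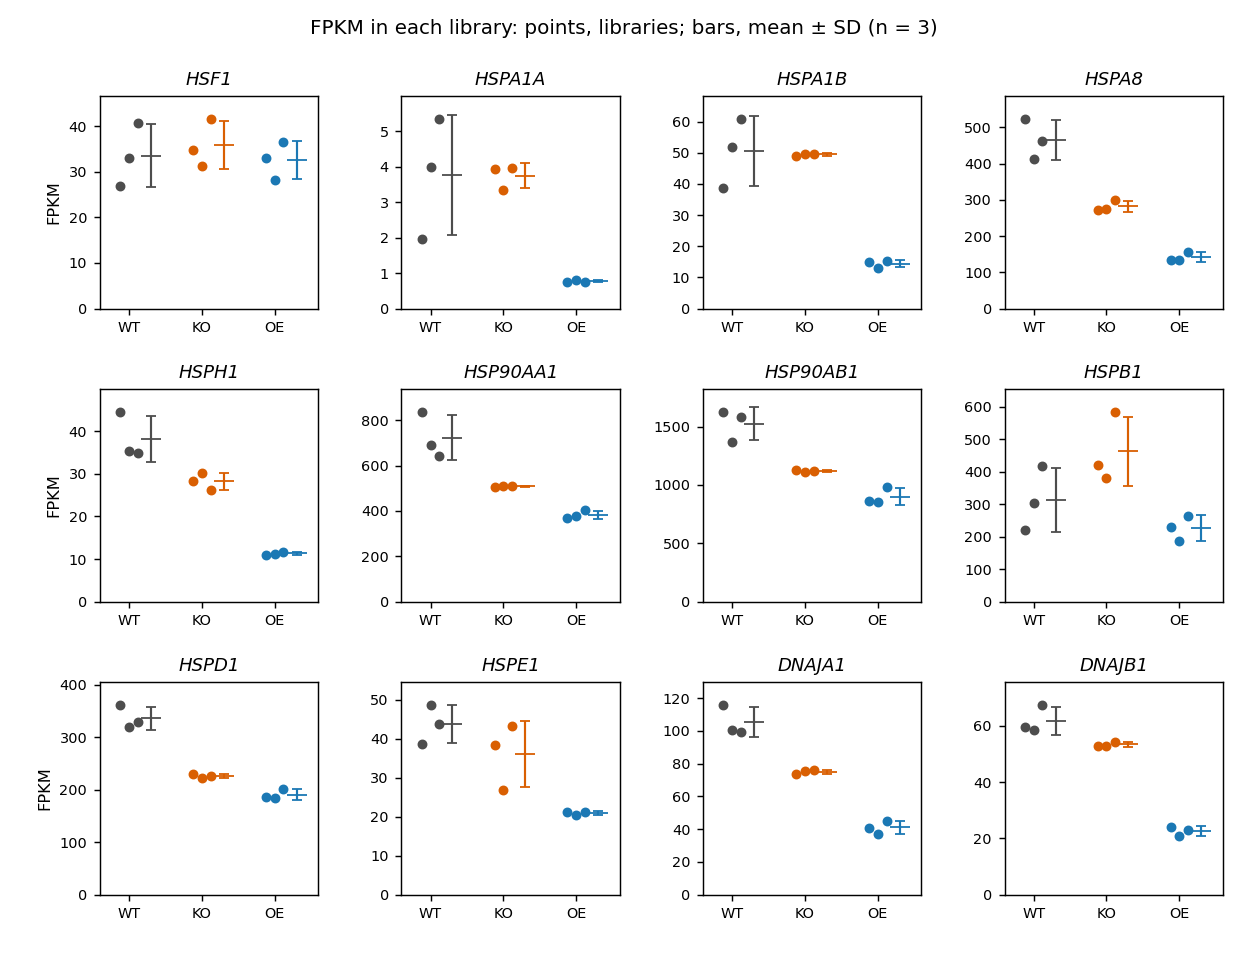
FPKM (vertical axes, each from 0) of 12 chaperone genes in the WT, KO-labelled and OE-labelled libraries. Points are libraries and bars are the mean ± SD of 3. HSF1 overlaps between all groups, HSPA1A, HSPA1B and DNAJB1 drop chiefly at the OE-labelled group, and HSPA8, HSP90AA1 and HSPD1 step down from group to group.

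All 3 Hsp110 genes, exchange factors for Hsp70, fell in A20-KO against WT, where 11% of all genes fell, and HSPH1 alone among them was also called in A20-OE against A20-KO. HSPH1 (chr13:31134974-31162388, minus strand) was at 44.5, 35.3 and 35.0 FPKM in WT, 28.4, 30.1 and 26.2 in the KO-labelled and 10.95, 11.3 and 11.7 in the OE-labelled libraries. Its groups did not overlap. It fell by 0.43 ± 0.11 in A20-KO against WT (adjusted p = 0.0229) and by 1.31 ± 0.11 in A20-OE against A20-KO (adjusted p = 7.19e-04, limma), the latter in every alternative fit. The former had an adjusted p of 0.0671 and 0.0694 without KO replicate 1 and KO replicate 3, and its change was -0.22 with the GC correction (adjusted p = 0.0424). HSPA4, with means of 78.4, 55.5 and 51.4 FPKM, fell by 0.49 ± 0.09 in A20-KO against WT (adjusted p = 0.00642), or by 0.31 with the GC correction (adjusted p = 0.00902). HSPA4L, at 4.29, 2.71 and 2.69 FPKM, fell by 0.64 ± 0.18 (adjusted p = 0.0299), a call that omission of WT replicate 1 or 2, KO replicate 1 or 3 or OE replicate 1 ended (adjusted p up to 0.0942).

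The Hsp90 genes were the most abundant of all members. HSP90AB1, the constitutive isoform, was at 1625, 1367 and 1585 FPKM in WT, 1129, 1113 and 1121 in the KO-labelled and 861, 855 and 981 in the OE-labelled libraries. No library of one group entered the range of another. The log2 fold change was -0.44 ± 0.15 in A20-KO against WT (adjusted p = 0.0578) and -0.32 ± 0.15 in A20-OE against A20-KO (adjusted p = 0.204), and neither passed, whereas it fell by 0.76 ± 0.15 in A20-OE against WT (adjusted p = 0.00389, limma). With no filter on low values this last adjusted p was 0.0650. The A20-KO against WT change passed with pseudocount 1, a filter at 1 FPKM, the replicate block, no variance trend or limma-voom (lowest adjusted p 0.00845).

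HSP90AA1, the inducible isoform, was at 837, 690 and 644 FPKM in WT, 508, 508 and 512 in the KO-labelled and 368, 377 and 403 in the OE-labelled libraries, again without overlap. It fell by 0.50 ± 0.13 in A20-KO against WT (adjusted p = 0.0249), and this call ended without WT replicate 2, any KO-labelled library or OE replicate 1 (adjusted p of 0.0540 to 0.0788). Between A20-OE and A20-KO the value was -0.41 ± 0.13 (adjusted p = 0.0843, and 0.0273 without WT replicate 1). The ratio of the isoforms hardly differed between groups, with HSP90AB1 2.13 ± 0.29, 2.20 ± 0.02 and 2.35 ± 0.08 times as high as HSP90AA1 on the FPKM scale.

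The small heat shock proteins, which hold unfolded proteins in solution without ATP, were the only class with a member that rose. HSPB1 (Hsp27) was at 221, 303 and 418 FPKM in WT, 422, 381 and 584 in the KO-labelled and 231, 185 and 265 in the OE-labelled libraries. The KO-labelled libraries lay above the OE-labelled ones and overlapped with WT. It fell by 1.02 ± 0.25 in A20-OE against A20-KO (adjusted p = 0.0417, limma), and without WT replicate 2 or any KO-labelled or OE-labelled library the adjusted p was 0.0605 to 0.158. Against WT, A20-KO was at 0.58 ± 0.25 (adjusted p = 0.134, and 0.0444 without WT replicate 3). HSPB1 has 64.3% GC, and with the GC correction the change in A20-OE against A20-KO was -0.77, no longer past 2-fold. The same correction gave 0.18 in A20-KO against WT (adjusted p = 0.389) and -0.59 in A20-OE against WT (adjusted p = 0.00845, against -0.43 and 0.238 without it).

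HSPB8, partner of BAG3 in selective autophagy, was at 2.35, 2.48 and 2.70 FPKM in WT, 3.58, 3.63 and 3.11 in the KO-labelled and 3.22, 4.21 and 3.23 in the OE-labelled libraries. Every WT library lay below the other 6. It rose by 0.44 ± 0.14 in A20-KO against WT (adjusted p = 0.0491), a call at the edge of the threshold that ended on leaving out any library except OE replicate 2 (adjusted p of 0.0533 to 0.138). The rise of 0.48 in A20-OE against WT (adjusted p = 0.0272) was lost without WT replicate 1, WT replicate 2 or OE replicate 2 (adjusted p of 0.0598 to 0.0865).

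Among the mitochondrial chaperones, HSPD1 and HSPE1 encode Hsp60 and its lid Hsp10, and their nearest RefSeq starts lie 105 bases apart on opposite strands of chromosome 2. HSPD1 was at 361, 319 and 328 FPKM in WT, 231, 223 and 225 in the KO-labelled and 187, 184 and 202 in the OE-labelled libraries, without overlap. It fell by 0.57 ± 0.10 in A20-KO against WT (adjusted p = 0.00429), and A20-OE against A20-KO gave -0.25 ± 0.10 (adjusted p = 0.155, limma). HSPE1 was at 38.8, 48.7 and 43.9 FPKM in WT, 38.4, 26.8 and 43.3 in the KO-labelled and 21.3, 20.5 and 21.2 in the OE-labelled libraries. Here WT and A20-KO overlapped and the OE-labelled libraries lay below both. HSPE1 showed -0.30 ± 0.17 in A20-KO against WT (adjusted p = 0.241) and fell by 0.76 ± 0.17 in A20-OE against A20-KO (adjusted p = 0.0278).

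The HSPE1 call was lost without KO replicate 1 or 3 or any OE-labelled library (adjusted p of 0.0745 to 0.108). The 2 genes share 281 exonic bases, and reads on processed pseudogenes of HSPE1 came to between 2.16% and 12.7% of its own. Whether the partners differed in either step was not tested. HSPA9 (mortalin), the Hsp70 of the matrix, fell by 0.73 ± 0.10 in A20-KO against WT (adjusted p = 0.00122), from 73.3 to 44.0 FPKM, and stood at 43.4 FPKM in A20-OE, where the value against A20-KO was -0.02 ± 0.10. TRAP1, the mitochondrial Hsp90, was at 44.1, 35.3 and 35.6 FPKM and passed no test, although A20-KO and A20-OE against WT had adjusted p of 0.00897 and 0.00603 without WT replicate 1. It shares 29.3% of its exonic bases with DNASE1 on the opposite strand.

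Of the 5 J proteins, DNAJA1 and DNAJA2 fell in A20-KO against WT, and DNAJA1 and DNAJB1 in A20-OE against A20-KO. DNAJB1 (Hsp40, chr19:14514770-14529770, minus strand), the main partner of inducible Hsp70, was at 59.5, 58.4 and 67.4 FPKM in WT, 53.0, 52.8 and 54.4 in the KO-labelled and 24.0, 20.8 and 23.1 in the OE-labelled libraries. The first gap was narrow and the second wide: the log2 fold change was -0.21 ± 0.09 in A20-KO against WT (adjusted p = 0.141), and DNAJB1 fell by 1.24 ± 0.09 in A20-OE against A20-KO (adjusted p = 4.01e-04, limma). DNAJA1, a farnesylated J protein of the cytosol, was at 116, 100.4 and 99.6 FPKM in WT, 73.7, 75.4 and 76.1 in the KO-labelled and 40.9, 37.2 and 45.1 in the OE-labelled libraries. Its groups did not overlap, and it fell by 0.48 ± 0.10 in the first step (adjusted p = 0.00985) and by 0.87 ± 0.10 in the second (adjusted p = 0.00265). With the GC correction the first step of DNAJA1 was -0.25 (adjusted p = 0.111).

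DNAJA2, the close relative of DNAJA1, fell by 0.31 ± 0.08 in A20-KO against WT (adjusted p = 0.0212), a call lost without WT replicate 2 or KO replicate 2 (adjusted p of 0.0575 and 0.0600) and with the GC correction (-0.08, adjusted p = 0.531). DNAJB4 was called only in A20-OE against WT (-0.62, adjusted p = 0.0173), and not without WT replicate 2 or OE replicate 2 or 3 (adjusted p up to 0.0633). DNAJB6, which suppresses aggregation of polyglutamine proteins, stayed between 5.45 and 6.99 FPKM in all 9 libraries and passed no test. Its KO-labelled libraries lay above all WT and all OE-labelled libraries.

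BAG1 and BAG3, exchange factors that link Hsp70 to the proteasome and to autophagy, passed no test in any of the 3 comparisons. BAG3, commonly listed among heat-inducible genes, was at 50.3 ± 12.6, 46.8 ± 2.03 and 38.2 ± 2.49 FPKM in WT, A20-KO and A20-OE, and its A20-OE against WT value of -0.36 (adjusted p = 0.137) came to adjusted p = 0.00347 without WT replicate 1.

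Of the Hsp90 co-chaperones, AHSA1, which stimulates the Hsp90 ATPase, was at 63.7, 62.5 and 73.1 FPKM in WT, 55.0, 52.9 and 60.6 in the KO-labelled and 36.8, 33.3 and 39.03 in the OE-labelled libraries. The groups did not overlap. AHSA1 showed -0.24 ± 0.10 in A20-KO against WT (adjusted p = 0.130) and fell by 0.63 ± 0.10 in A20-OE against A20-KO (adjusted p = 0.0101, and 0.0505 without OE replicate 1, limma). FKBP4 (FKBP52), an immunophilin of steroid receptor complexes, fell by 0.41 ± 0.10 in each step (adjusted p = 0.0183 and 0.0388). The first call was lost without KO replicate 1 or 2 (adjusted p of 0.0579 and 0.0597) and the second without WT replicate 2 or any KO-labelled or OE-labelled library (adjusted p up to 0.136).

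PTGES3 (p23) fell by 0.54 ± 0.11 in A20-KO against WT (adjusted p = 0.00933), from 184.7 to 127 FPKM. STIP1 (Hop), which joins Hsp70 to Hsp90, was called only in A20-OE against WT (-0.62, adjusted p = 0.00685). CDC37, the kinase co-chaperone, and the ubiquitin ligase STUB1 (CHIP) passed no test in any of the 3 comparisons. CDC37 was at 62.2 FPKM in WT replicate 1 and at 121 and 140 FPKM in the other WT libraries, and without that replicate it was lower in A20-OE than in WT with adjusted p = 0.0243. STUB1 shares 42.4% of its exonic bases with JMJD8 on the opposite strand, and without strand the reads cannot be told apart. In A20-OE against A20-KO its value was -0.54 (adjusted p = 0.121, and 0.0467 without WT replicate 1).

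The 8 TRiC subunits, which assemble in equal numbers into a double ring, were all at lower mean levels in A20-KO than in WT. In that comparison 7 of the 8 fell, by 0.37 to 0.62 on the log2 scale, where 11% of all genes fell, and CCT7 was at -0.29 (adjusted p = 0.132, limma). TCP1 was at 131, 109 and 114 FPKM in WT, 81.6, 77.0 and 74.4 in the KO-labelled and 75.4, 73.0 and 81.3 in the OE-labelled libraries. Its KO-labelled and OE-labelled libraries overlapped and all lay below WT. It fell by 0.60 ± 0.10 in A20-KO against WT (adjusted p = 0.00350), and A20-OE against A20-KO gave -0.02 ± 0.10 (adjusted p = 0.926).

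Of the subunits, CCT6A had the largest decrease against WT. It was at 134, 123 and 126 FPKM in WT, 85.6, 82.6 and 80.1 in the KO-labelled and 67.7, 67.8 and 71.8 in the OE-labelled libraries, without overlap. It fell by 0.62 ± 0.08 in A20-KO against WT (adjusted p = 0.00125) and by 0.88 ± 0.08 in A20-OE against WT (adjusted p = 9.77e-05), with -0.26 ± 0.08 between A20-OE and A20-KO (adjusted p = 0.0849, and 0.0325 without WT replicate 1). All 8 subunits fell in A20-OE against WT, where 15.4% of all genes did.

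In A20-OE against A20-KO, CCT2 alone of the 8 passed, at -0.33 ± 0.09 (adjusted p = 0.0471, limma), and it did not without WT replicate 2 or any KO-labelled or OE-labelled library (adjusted p of 0.0549 to 0.153). With the GC correction CCT6A and CCT7 passed as well (adjusted p = 0.0135 and 0.0426), and with the replicate block added so did CCT3, CCT5 and CCT8. CCT4 was at 0.01 in this comparison and CCT7, at the other end, at -0.40 (adjusted p = 0.0818). Of the calls in A20-KO against WT, that of CCT3 was lost without WT replicate 1, 2 or 3, KO replicate 1 or 2, or OE replicate 1 or 2 (adjusted p of 0.0521 to 0.138), and that of CCT8 without KO replicate 1 or 2 or OE replicate 1 (adjusted p of 0.0511 to 0.0816) or with the GC correction (-0.21, adjusted p = 0.103). TCP1, CCT2, CCT4, CCT5 and CCT6A kept theirs in every alternative fit. Summed over the subunits, the level was 1058 ± 47.6 FPKM in WT, 769 ± 26.6 in the KO-labelled and 667 ± 46.4 in the OE-labelled libraries.

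**Figure D3:**
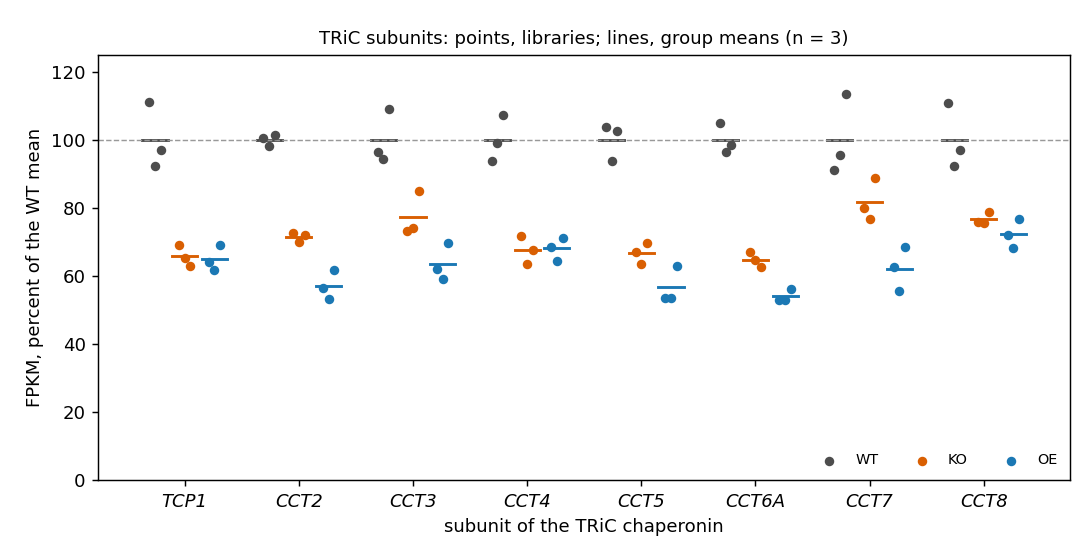
FPKM of each TRiC subunit as a percent of its WT mean (vertical axis, from 0) by subunit (horizontal axis). Points are libraries and short lines are group means of 3. The WT libraries lie between 91.0% and 114%, the KO-labelled between 62.8% and 88.7% and the OE-labelled between 53.1% and 76.9%.

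Set side by side, the members showed different shapes over the 3 groups. HSPA8, HSPH1, DNAJA1, FKBP4 and CCT2 were called lower in all 3 comparisons. HSPA1A, HSPA1B, HSPE1, DNAJB1 and AHSA1 were called in A20-OE against either other group and not in A20-KO against WT. A further 15 rows, among them HSPA9, HSPD1, HSP90AA1 and 6 TRiC subunits, were called in A20-KO and A20-OE against WT and not between the latter 2 groups. HSP90AB1, DNAJB4, STIP1 and CCT7 were called in A20-OE against WT alone, and 9 rows (HSF1, HSF2, HSPA2, TRAP1, DNAJB6, BAG1, BAG3, CDC37 and STUB1) in no comparison. A call in one comparison and not in another does not show that the 2 steps differ, and the difference between steps was not tested. How many of all genes had each combination of calls was not counted either.

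**Figure D4:**
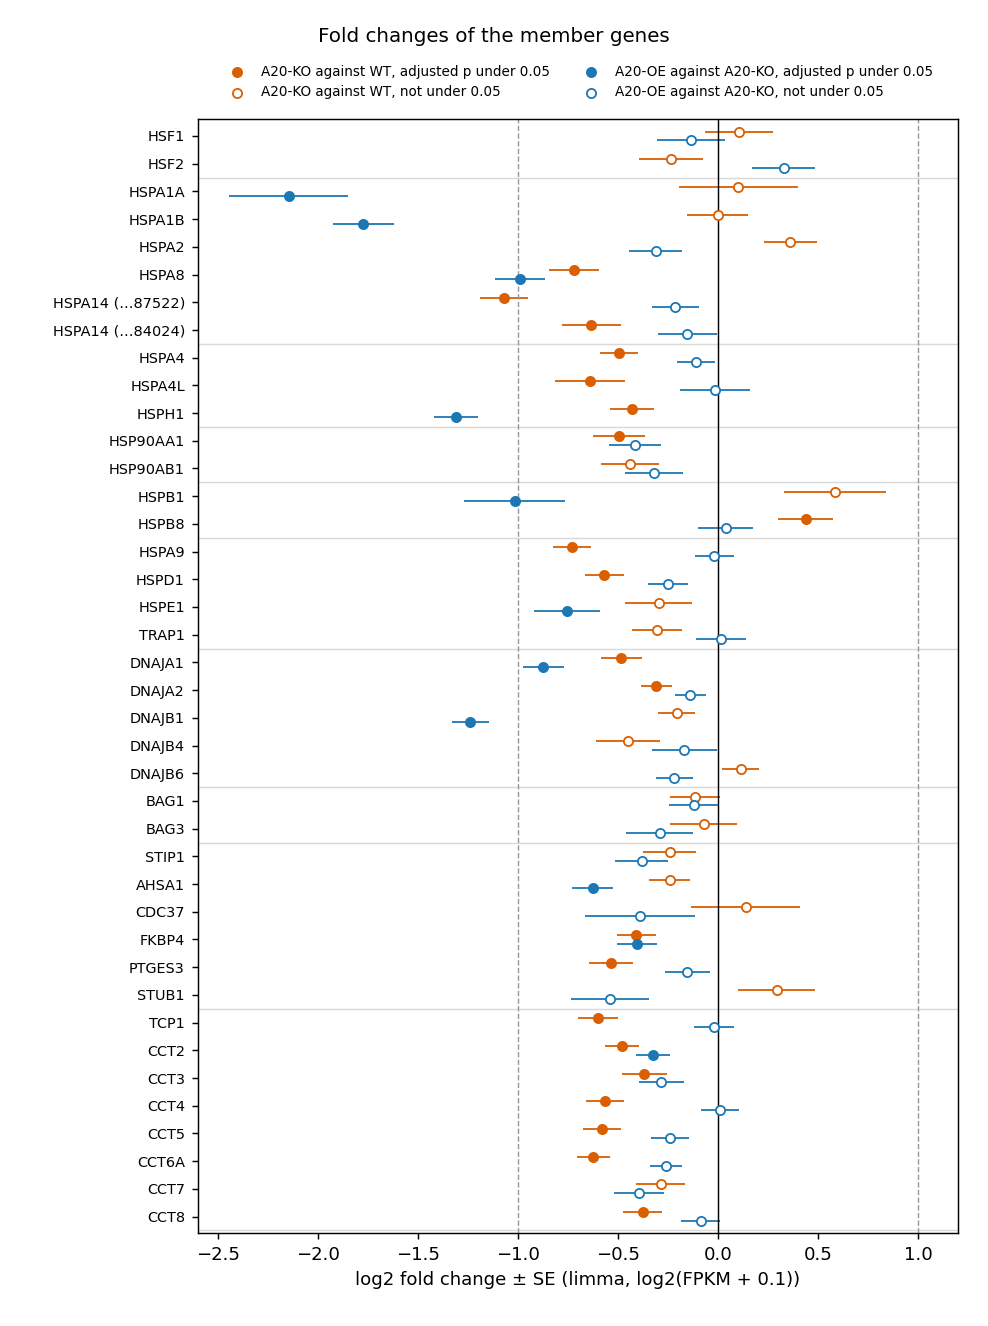
Log2 fold change ± SE (horizontal axis) of each of the 40 rows (vertical axis, in order of role) in A20-KO against WT and in A20-OE against A20-KO. Filled points have an adjusted p under 0.05 and dashed lines mark 2-fold. HSPA1A, HSPA1B, HSPH1, DNAJB1 and HSPB1 lie left of the 2-fold line for A20-OE against A20-KO, and most TRiC rows have a filled point for A20-KO against WT and an open one for the other comparison. Both comparisons use the KO-labelled libraries.

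A textbook list of heat-inducible HSF1 targets, 17 of them members, had 20 of its 22 genes above the filter. It includes HSPA8 and HSP90AB1, which are named constitutive above. Of the 20, 10 fell in A20-KO against WT, 13 in A20-OE against A20-KO and 18 in A20-OE against WT (limma), where 11%, 4.54% and 15.4% of all genes fell. In A20-OE against A20-KO the median log2 fold change was -0.66 over the list and -0.15 over the 23 member rows outside it, of which 1, CCT2, fell. In A20-KO against WT the medians were closer, -0.43 and -0.37. The 3 targets that are no members, CHORDC1, CACYBP and the collagen chaperone SERPINH1, fell in all 3 comparisons. The list was written with earlier results of these libraries known and is no independent evidence of a direction.

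Other chaperone genes, 71 of which passed the filter (HSPA6, HSPB2, HSPB3, HSPB7, CRYAB, CRYAA and HSF5 did not), were tested in the same fit. In A20-KO against WT 15 fell and 4 rose, in A20-OE against A20-KO 7 fell and 2 rose, and in A20-OE against WT 27 fell and 5 rose. Of all genes, 11%, 4.54% and 15.4% fell and 11.3%, 4.43% and 15.7% rose in these comparisons. Their medians were -0.21, -0.14 and -0.30. The 15 became 8 without KO replicate 1, the 27 became 17 without OE replicate 1, and the 7 became 16 without WT replicate 1 and 1 without KO replicate 1, OE replicate 1 or OE replicate 2, with 3 to 4 without WT replicate 2, KO replicate 2 or 3 or OE replicate 3. The 2 that rose in A20-OE against A20-KO became 0 without any KO-labelled or OE-labelled library and 1 without WT replicate 2, and the 5 in A20-OE against WT became 3 without OE replicate 1. DNAJB2, a J protein known from neurons, rose by 1.03 ± 0.19 in A20-KO against WT (adjusted p = 0.00526, limma), from a mean of 4.23 to 8.65 FPKM, with WT replicate 1 the lowest at 3.09 FPKM.

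In A20-OE against WT, 5 of these genes fell past 2-fold. CACYBP, a partner of Hsp90 and of a ubiquitin ligase, went from 36.5 to 15.2 FPKM, and CHORDC1, an Hsp90 co-chaperone, from 11.7 to 5.24 FPKM. The Hsp70 exchange factor HSPBP1 went from 38.97 to 17.7 FPKM. DNAJC2, which works at the ribosome, went from 8.57 to 3.58 FPKM, and DNAJC9, a J protein that also handles histones, from 13.1 to 5.65 FPKM. None passed 2-fold in A20-OE against A20-KO. The largest falls there were those of HSPBP1 (-0.87), CACYBP (-0.70), CHORDC1 (-0.69) and BAG2 (-0.57), an inhibitor of CHIP, and the 2 that rose were CLPX (0.50), the unfoldase of a mitochondrial protease, and BAG5 (0.39), another BAG protein, with adjusted p of 0.0249 and 0.0320.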

How the data were processed

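The deposited table holds FPKM per gene, which the authors made from reads aligned with HISAT2 2.0.5 and counted with featureCounts 1.5.0-p3, per the submitters' processing notes and the study's methods. Gene IDs are all in GENCODE 29, and 99.92% of coordinates match it (GRCh38). Multiplying by gene length and dividing by a unit fitted for each library gave whole reads (within 0.01) for 100% of values. Counting error depends on the number of reads, which among the members was lowest for HSPA1A (at least 43 per library). FPKM is relative to a depth set for each library, so changes are relative to other transcripts. That depth was not the recovered read total. The recovered total over the depth implied by FPKM was 0.965, 0.950 and 0.998 in the WT libraries. It was 0.966, 0.959 and 1.022 in the KO-labelled and 1.001, 0.979 and 1.066 in the OE-labelled libraries. The cause of these ratios was not tested.

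All 9 libraries entered 1 limma fit (limma 3.58.1, R 4.3.3) on log2(FPKM + 0.1) with the group as the only term and a variance trend, over 21636 genes with a mean of at least 0.1 FPKM. The study's methods tested read counts with another tool. Here the test was chosen for the deposited unit, and the reads recovered from it were tested as an alternative. "Rose" and "fell" mean adjusted p under 0.05, and 2-fold adds an absolute log2 fold change above 1, as in the study's methods. The scripts were tested on simulated data.

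The members and all lists were chosen with earlier results of these data known. Per-library values are given for HSF1, HSPA1A, HSPA1B, HSPA8, HSP90AA1, HSP90AB1, HSPD1, HSPE1 and TCP1, for members past both thresholds, and for the member with the largest called change in each role. Other chaperone genes are named if past both thresholds, and otherwise by the 4 largest changes in each direction. Alternatives were other pseudocounts, filters, scaling, a variance without trend, 2-group fits, a replicate block, a GC correction in 50 bins, limma-voom on the recovered reads, HSPA1A and HSPA1B summed, adjusted p under 0.01, and leaving out each library.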

Additional observations from a re-analysis of the deposited data

How the results depend on the processing

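No called member changed sign under any alternative. Of the member calls, 11 of 21 in A20-KO against WT, 6 of 11 in A20-OE against A20-KO (HSPA1A, HSPA1B, HSPA8, HSPH1, DNAJA1 and DNAJB1) and 26 of 30 in A20-OE against WT kept adjusted p under 0.05 in every fit. The cause of the other shifts was not tested, except that adjusted p under 0.01 is stricter by construction. For the members, in A20-KO against WT, the number that rose was 0 in place of 1 with pseudocount 1, no filter, only the 2 groups compared or adjusted p under 0.01, the number that fell was 12 in place of 20 with only the 2 groups compared or adjusted p under 0.01, and the number past 2-fold was 0 in place of 1 with pseudocount 1 or the GC correction, with or without the block. In A20-OE against A20-KO the number that fell was 7 in place of 11 with no filter or no variance trend, 6 with adjusted p under 0.01, 16 with the GC correction and 25 with the GC correction and replicate block together. In A20-OE against WT the 1 that rose became 0 with only the 2 groups compared or adjusted p under 0.01. Leaving out 1 library gave 0 to 1 that rose and 0 to 1 past 2-fold in A20-KO against WT, 6 to 14 that fell in A20-OE against A20-KO, and 0 to 1 that rose in A20-OE against WT.

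For the other chaperone genes in A20-KO against WT, 7 rose in place of 4 with the GC correction, with or without the block, and the 15 that fell became 9 with only the 2 groups compared and 6 with adjusted p under 0.01. In A20-OE against A20-KO the 2 that rose became 0 with no variance trend or adjusted p under 0.01 and 4 with the GC correction and block, and the 7 that fell became 12 with a filter at 1 FPKM, 14 with only the 2 groups compared, 3 with no variance trend, 16 with the GC correction, 20 with the GC correction and block, and 1 with adjusted p under 0.01. In A20-OE against WT the 5 that rose became 8 with the GC correction, 9 with the block added and 3 with adjusted p under 0.01, and the 27 that fell became 16 with adjusted p under 0.01. Leaving out 1 library gave 8 to 16 that fell in A20-KO against WT, 0 to 2 that rose and 1 to 16 that fell in A20-OE against A20-KO, and 3 to 7 that rose and 17 to 28 that fell in A20-OE against WT.

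The replicate numbers were not taken to pair the libraries, since not every same-numbered pair correlated above 0.1: deviations from the group means correlated at -0.12 to 0.33 (mean 0.12) between same-numbered libraries and at -0.33 to 0.21 (mean -0.059) between others. The 3 highest values were between same-numbered libraries, while WT replicate 1 correlated best with KO replicate 2 among the KO-labelled libraries. With the replicate block 2 members rose in A20-KO against WT, and of the other chaperone genes 12 fell in A20-OE against A20-KO. Over all genes the block gave 5602, 2577 and 7348 calls in the 3 comparisons in place of 4816, 1940 and 6735, and limma-voom on the recovered reads gave 5604, 2498 and 7318. With the GC correction 3400 genes were called in A20-OE against A20-KO. In A20-KO against WT that correction added HSF1, HSPA1B, TRAP1, DNAJB1 and STIP1 to the members that fell and took out DNAJA1, DNAJA2 and CCT8, and HSPA2 took the place of HSPB8 as the member that rose. It also added HSP90AA1, HSPD1, DNAJB4, CCT6A and CCT7 to the members that fell in A20-OE against A20-KO. HSPA1A had as few as 43 reads in a library, and each group has 3 libraries.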
